A study of Mus musculus with 10 samples.

Results

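The genes described here are 10 genes of antigen presentation: H2-Aa, H2-Ab1, H2-Eb1, H2-DMa, Cd74 and Ciita of the major histocompatibility complex (MHC) class II pathway, and B2m, Tap1, Tap2 and Tapbp of the class I pathway. They were chosen by name among 19938 genes that had a probe set of their own on the array, and each was read from its brightest such probe set over all 10 arrays. All 10 had exactly 1 probe set of their own. Tapbp was also named on 2 probe sets together with the ribosomal protein gene Rps3a1, which differed by -0.02 and -0.01 log2 units between the groups and are not used for it here.

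The samples were haematopoietic stem cells (HSCs) from the bone marrow of 8-week-old mice, sorted as Lineage-negative, Sca1-positive, cKit-positive, CD150-positive and CD48-negative cells, 10000 cells to an aliquot. The 5 transgenic arrays came from mice with a (tetO)7CMVSox17-IRES-NucEGFP transgene and the tetracycline-controlled activator rtTA*M2 at the Rosa26 locus. The 5 wild-type arrays came from control littermates. Both groups drank doxycycline at 2 mg/ml for 5 days, which switches the transgene on through the activator; the Rosa26 locus is active in most tissues, not in blood alone. The labels call the aliquots independent but tie none to a single animal, so the p-values speak of aliquot-to-aliquot spread, some of which may be technical.

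Class I molecules are made by nearly all nucleated cells. They pair a heavy chain with beta-2 microglobulin and present peptides that the proteasome cut in the cytosol and the TAP transporter carried into the endoplasmic reticulum. Class II molecules are pairs of an alpha and a beta chain that present peptides from endosomes, chiefly on dendritic cells, macrophages and B cells; stem and progenitor cells of the marrow also carry them at lower levels. The invariant chain Cd74 escorts class II molecules to endosomes, where cathepsins trim it and H2-DM exchanges its last fragment for a peptide, and the transactivator Ciita switches the class II genes on.

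Values are log2 expression after robust multi-array averaging (RMA), differences are transgenic minus wild type, and a gene was called where limma's adjusted p (Benjamini-Hochberg over 23410 probe sets with a gene symbol) was under 0.05. The Sox17 probe set read 4.37 ± 0.13 in transgenic and 4.21 ± 0.13 in wild type (SD, n = 5 each; limma adjusted p = 0.855), so directions rest on the labels. The arrays also parted into 2 sets along the first principal component of their deviations from the group means, which held 40.1% of that variance. Set A holds transgenic arrays 1, 2 and 3 and wild-type arrays 1 and 2, and set B holds transgenic arrays 4 and 5 and wild-type arrays 3, 4 and 5. The sets were defined from the values themselves, so blocking on them lowers the residual spread by construction.

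In the transgenic group 9 of the 10 genes had lower means, as 53.7% of all probe sets did. The peptide transporter subunit Tap1, the class II chains H2-Aa and H2-Eb1 and the peptide-exchange chain H2-DMa were 1.34-fold to 1.73-fold lower, while B2m and Tapbp differed by -0.06 and 0.01 log2 units. None of the 10 was called (limma, 0 with an adjusted p under 0.05, against 0.141% of all probe sets in either direction, 0.0214% lower and 0.12% higher). With an unadjusted p under 0.05, 4 were lower and 0 higher, where 2.9% of all probe sets were lower and 3.7% higher, 6.59% in either direction. All transgenic arrays lay below all wild-type arrays for 3 of the 10 and above them for 0, against 0.594% lower and 0.876% higher over all probe sets. The median difference of the 10 was -0.29, beside -0.01 over all tested probe sets. The count of 4 was the same, with the same 4 genes, when blocked on array set and within set A, and it was 3 within set B, where H2-DMa was not among them; 3.69%, 3.11% and 2.17% of all probe sets were lower at that p in these fits. In bulk samples fewer cells of a type and less RNA per cell cannot be told apart.

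**Figure D1:**
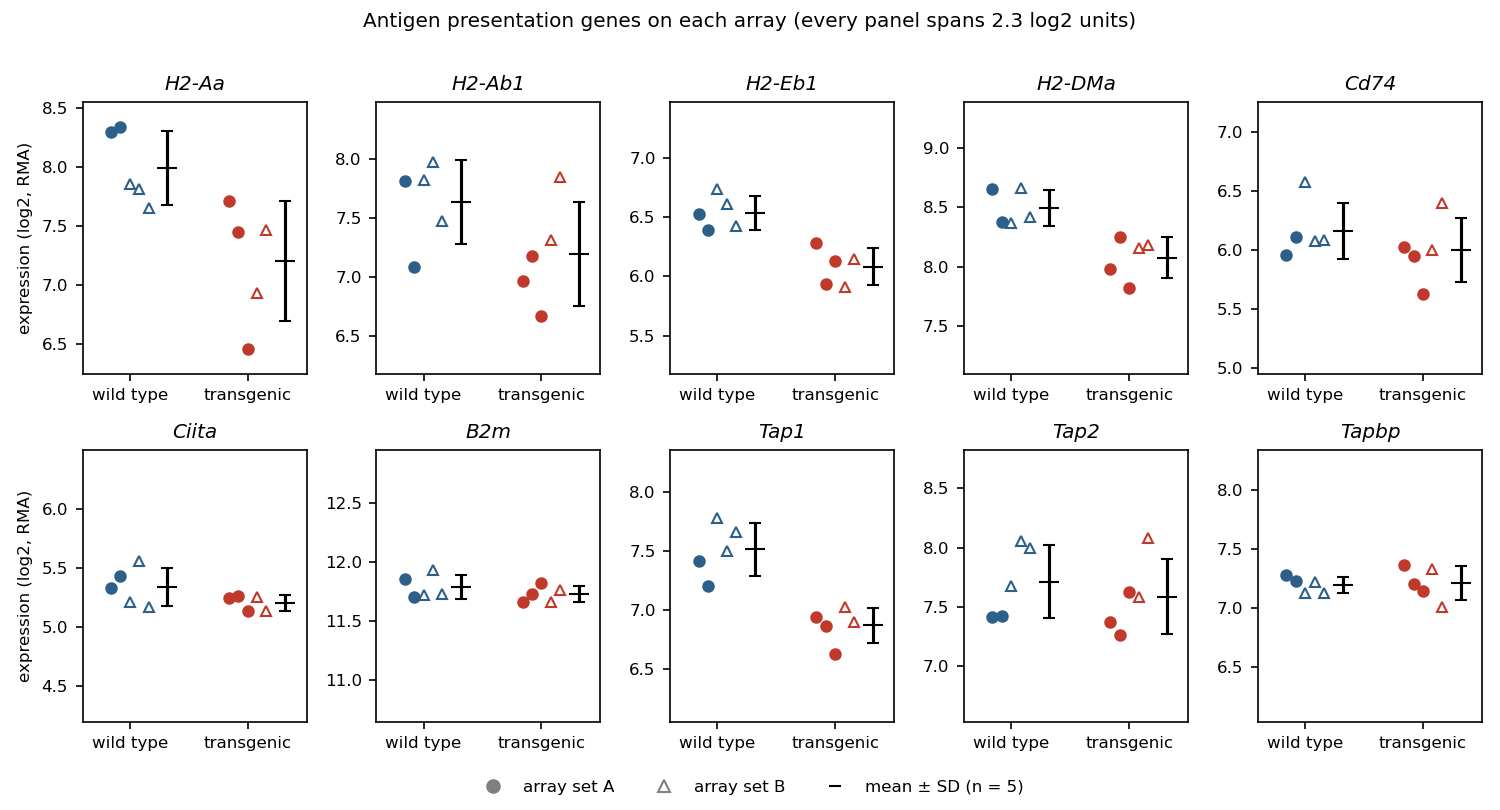
Log2 expression (vertical axis, RMA units; every panel spans 2.3 log2 units) of the 10 genes on the 5 wild-type and 5 transgenic arrays, with filled circles for array set A, open triangles for set B and bars for the mean ± SD (n = 5). H2-Eb1, H2-DMa and Tap1 show a gap between the groups, with all transgenic arrays below all wild-type arrays. For B2m and Tapbp the groups overlap.

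The class II chains come first. H2-Aa, the alpha chain of the I-A molecule, read 8.30, 8.34, 7.85, 7.81 and 7.65 on wild-type arrays 1 to 5 and 7.71, 7.45, 6.45, 6.93 and 7.47 on transgenic arrays 1 to 5. The groups met only at transgenic array 1 and wild-type array 5, and transgenic array 3 was the lowest of all. The difference was -0.79 (SE 0.23), the largest of the 10 genes (limma adjusted p = 0.383; 0.186 to 0.695 over 22 alternative settings). H2-Eb1, the beta chain of the I-E molecule, read 6.53, 6.39, 6.75, 6.61 and 6.43 on the wild-type arrays and 6.28, 5.94, 6.13, 5.91 and 6.15 on the transgenic arrays. The groups did not overlap, and the difference was -0.46 (SE 0.10, limma adjusted p = 0.150; 0.122 to 0.698 over the alternatives).

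H2-Ab1, the beta chain that pairs with H2-Aa, read 7.81, 7.08, 7.82, 7.97 and 7.48 on the wild-type arrays. On the transgenic arrays it read 6.97, 7.18, 6.67, 7.32 and 7.85. The groups overlapped widely, since wild-type array 2 was low and transgenic array 5 high, and the difference was -0.44 (SE 0.22, limma adjusted p = 0.813, 95% interval -0.93 to 0.05). Per array, the H2-Aa value minus the H2-Ab1 value averaged 0.01 ± 0.49 in transgenic and 0.36 ± 0.56 in wild type (SD, n = 5 each), and the group difference of -0.35 did not pass (two-sided exact permutation test, p = 0.341). The test thus found no difference between the partner chains, which does not show that they differed alike.

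The upstream stretches of H2-Aa and H2-Eb1 are shown because these are the class II chain genes with the smallest p. Class II promoters are known for an X box, bound by the RFX and CREB factors that recruit Ciita, followed by a Y box bound by NF-Y. Letters were searched on both strands: GCAAC, the core of the X1 element, TGACG, the core of the X2 element, ATTGG for the Y box, and GAAA, any 2 bases and GAAA again for the interferon-stimulated response element (ISRE). Capitals mark every match, and matches may overlap, as the 2 copies of TGACG on opposite strands of H2-Aa do. Both are 150 bases that end just before the transcription start in RefSeq (GRCm38.p6), H2-Aa at chr17:34287824-34287973 on the minus strand and H2-Eb1 at chr17:34305717-34305866 on the plus strand.
H2-Aa: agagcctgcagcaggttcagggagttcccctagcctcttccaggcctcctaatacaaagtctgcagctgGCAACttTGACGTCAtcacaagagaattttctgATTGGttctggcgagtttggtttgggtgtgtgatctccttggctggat
H2-Eb1: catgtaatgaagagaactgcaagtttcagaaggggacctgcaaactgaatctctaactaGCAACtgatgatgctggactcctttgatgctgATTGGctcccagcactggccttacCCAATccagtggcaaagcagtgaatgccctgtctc
In both, GCAAC is followed on the same strand by ATTGG, after a gap of 28 bases in H2-Aa and 27 in H2-Eb1. Of 32851 RefSeq promoter windows, searched over the 250 bases before each start, 0.673% held such a pair with a gap of 20 to 35 bases. GCAAC alone was present in 29.9%, TGACG in 17.8%, ATTGG in 33.8% and the ISRE letters in 2.98%. The letters and the gap were chosen after these sequences had been seen, and a match is a description of the letters only. Of the 10 genes 6 had a window in the table, H2-Aa, H2-Eb1, H2-DMa, B2m, Tap1 and Tapbp; neither of the 2 windows of H2-DMa held the pair.

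The genes that load and escort class II molecules differed among themselves. H2-DMa, the alpha chain of the peptide exchanger, read 8.66, 8.38, 8.37, 8.66 and 8.42 on the wild-type arrays and 7.98, 8.25, 7.82, 8.15 and 8.18 on the transgenic arrays. All transgenic arrays lay below all wild-type arrays, with a difference of -0.42 (SE 0.10, limma adjusted p = 0.237; 0.192 to 0.911 over the alternatives). The probe set shared by its partners H2-DMb1 and H2-DMb2, which cannot tell the pair apart, read 6.64 ± 0.20 and 6.85 ± 0.19 (SD, n = 5 each), a difference of -0.21 (SE 0.12). Cd74, the invariant chain, read 5.96 to 6.58 in wild type and 5.63 to 6.40 in transgenic arrays. Its groups overlapped, with a difference of -0.16 (SE 0.15, limma adjusted p = 0.943) and a 95% interval of -0.49 to 0.17. Ciita, the transactivator, read 5.17 to 5.56 on the wild-type and 5.13 to 5.27 on the transgenic arrays. Its probe set was the 1 of the 10 below the median brightness of all tested probe sets, where RMA compresses differences, and it differed by -0.13 (SE 0.09, limma adjusted p = 0.903, 95% interval -0.33 to 0.06).

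In the class I pathway, Tap1 had the smallest p of the 10 genes. Tap1 and Tap2 form the transporter that moves peptides into the endoplasmic reticulum. Tap1 read 7.42, 7.20, 7.78, 7.50 and 7.66 on wild-type arrays 1 to 5 and 6.94, 6.86, 6.62, 7.02 and 6.90 on transgenic arrays 1 to 5. The groups did not overlap, and the difference was -0.64 (SE 0.12), 1.56-fold lower, at rank 50 by p among the 23410 probe sets (limma adjusted p = 0.0864). With the array set as a block it was -0.59 and passed the threshold (limma adjusted p = 0.0329; 0.389% of all probe sets passed in that fit, and 0.0769% were called lower). That was the 1 of 22 alternative settings to call it, and the other 21 gave 0.0559 to 0.486. Tap2, on the other hand, read 7.41, 7.42, 7.67, 8.06 and 8.00 on the wild-type and 7.37, 7.26, 7.63, 7.58 and 8.08 on the transgenic arrays. Its groups overlapped almost completely, with a difference of -0.13 (SE 0.18, limma adjusted p = 0.965) and a 95% interval of -0.52 to 0.26.

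The Tap1 value minus the Tap2 value, taken per array, averaged -0.72 ± 0.36 in transgenic and -0.20 ± 0.27 in wild type (SD, n = 5 each). The group difference of -0.52 had p = 0.0317 in a two-sided exact permutation test, whose smallest possible p is 0.00794, and an adjusted p of 0.0634 over the 2 partner pairs compared. The pairs were chosen after their values were seen. Set A alone gave -0.51 and set B alone -0.61. Over all arrays the unadjusted permutation p was thus under the threshold, but the adjusted p of 0.0634 did not pass. Leaving out 1 array at a time gave -0.40 to -0.60 with unadjusted p of 0.0238 to 0.0873. The unadjusted p was above the threshold without transgenic array 3, 4 or 5 or wild-type array 1, 2, 3 or 5.

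B2m, the light chain of every classical class I molecule, read 11.86, 11.70, 11.72, 11.93 and 11.73 on the wild-type and 11.66, 11.73, 11.82, 11.66 and 11.77 on the transgenic arrays. The groups overlapped, although wild-type arrays 1 and 4 lay above all transgenic arrays and transgenic arrays 1 and 4 below all wild-type arrays. The difference of -0.06 (SE 0.07, limma adjusted p = 0.958) had a 95% interval of -0.22 to 0.10. Its probe set was brighter than 99.2% of those tested. Tapbp, or tapasin, the chaperone that holds empty class I molecules to the transporter, read 7.13 to 7.28 on the wild-type and 7.01 to 7.36 on the transgenic arrays. It differed by 0.01 (SE 0.08), with a 95% interval of -0.17 to 0.20. Its sign turned with the setting, and it was -0.0036 when blocked on array set.

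The stretches before Tap1 and B2m are shown as the class I genes with the smallest p and with the brightest probe set. They were searched for the same letters and are given over the same length (RefSeq, GRCm38.p6), Tap1 at chr17:34187406-34187555 and B2m at chr2:122147537-122147686, both on the plus strand.
Tap1: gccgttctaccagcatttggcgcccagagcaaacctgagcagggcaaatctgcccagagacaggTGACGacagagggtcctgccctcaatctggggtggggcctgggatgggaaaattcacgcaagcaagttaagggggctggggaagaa
B2m: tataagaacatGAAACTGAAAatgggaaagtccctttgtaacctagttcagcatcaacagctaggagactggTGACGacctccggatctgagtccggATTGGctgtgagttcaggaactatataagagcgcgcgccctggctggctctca
The B2m stretch held GAAACTGAAA, a match to the ISRE letters, TGACG and ATTGG. The Tap1 stretch held TGACG, and neither gene held the GCAAC and ATTGG pair at the stated gap.

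**Figure D2:**
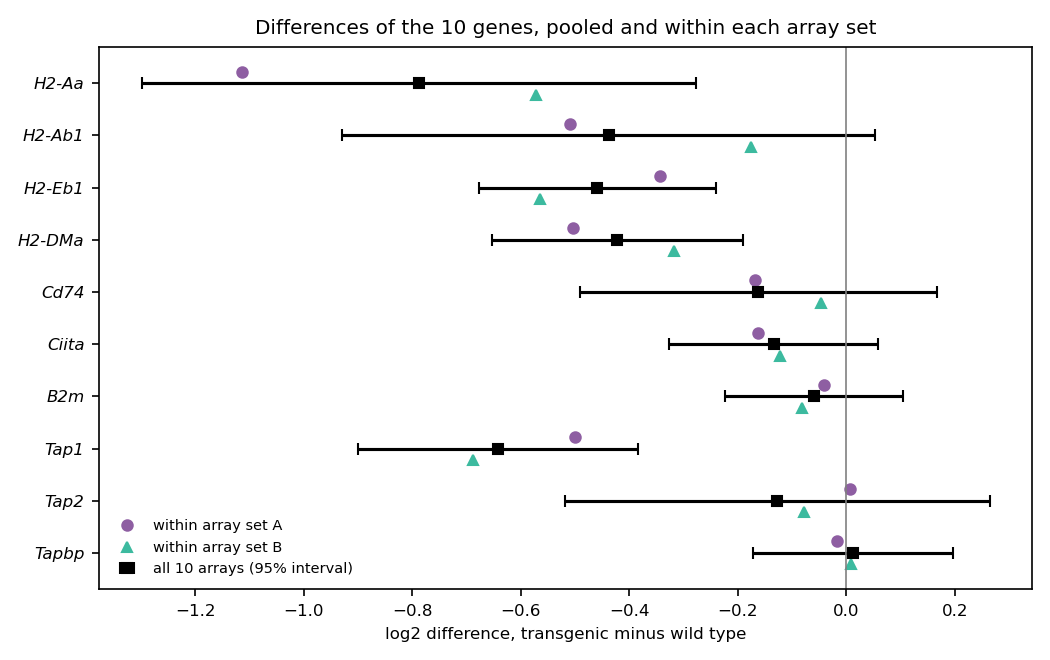
Log2 difference, transgenic minus wild type (horizontal axis), of the 10 genes over all 10 arrays (squares with 95% intervals from limma) and within array set A (circles) and set B (triangles). The intervals of H2-Aa, H2-Eb1, H2-DMa and Tap1 lie below 0, and for these 4 genes the differences within both sets are also below 0. For H2-Eb1, H2-DMa and Tap1, whose groups do not overlap, this holds for any split of the arrays.

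H2-Aa, H2-Eb1, H2-DMa, Tap1 and H2-Ab1 were lower in the transgenic arrays of both array sets, whereas Tap2 was at 0.0066 in set A and -0.08 in set B. The difference for H2-Aa was -1.11 in the arrays of set A and -0.57 in those of set B, and -0.34 and -0.57 for H2-Eb1. It was -0.50 and -0.32 for H2-DMa, and -0.50 and -0.69 for Tap1. For H2-Ab1 it was -0.51 and -0.18. An interaction of group and set had an unadjusted p of 0.244 to 0.889 for the 10 genes, none under 0.05, where 3.96% of all probe sets had one, and in limma 0 probe sets passed after adjustment. The sets themselves differed for Tap2, which was 0.46 higher in set B (limma adjusted p = 0.0394) and was the 1 member among the 10 to pass, where 9.74% of all probe sets did.

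The genes near these 4 were read in the same way. In RefSeq order, 14 protein-coding genes from H2-Oa to H2-Eb2 make up the class II stretch of chromosome 17, and 6 of the 10 genes are among them. Of 12 with a probe set of their own, 10 had negative differences, as 53.7% of all probe sets did, and all 6 already described are among these 10. With an unadjusted p under 0.05, 5 were lower and 1 higher, where 2.9% of all probe sets were lower and 3.7% higher. Of the 5 lower, 4 were already described. The fifth was the immunoproteasome subunit Psmb9 (-0.29, SE 0.13, limma adjusted p = 0.738), whose gene stands beside Tap1. At the start of the stretch, H2-Oa, a chain of the inhibitor of H2-DM, went the other way. It read 7.20 ± 0.27 in transgenic and 6.74 ± 0.17 in wild type (SD, n = 5 each), without overlap, a difference of 0.46 (SE 0.13, limma adjusted p = 0.377). Its partner H2-Ob differed by -0.22 (SE 0.24). Between H2-Oa and H2-DMa, the chromatin reader gene Brd2, which has no part in antigen presentation, differed by 0.04 (SE 0.11).

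**Figure D3:**
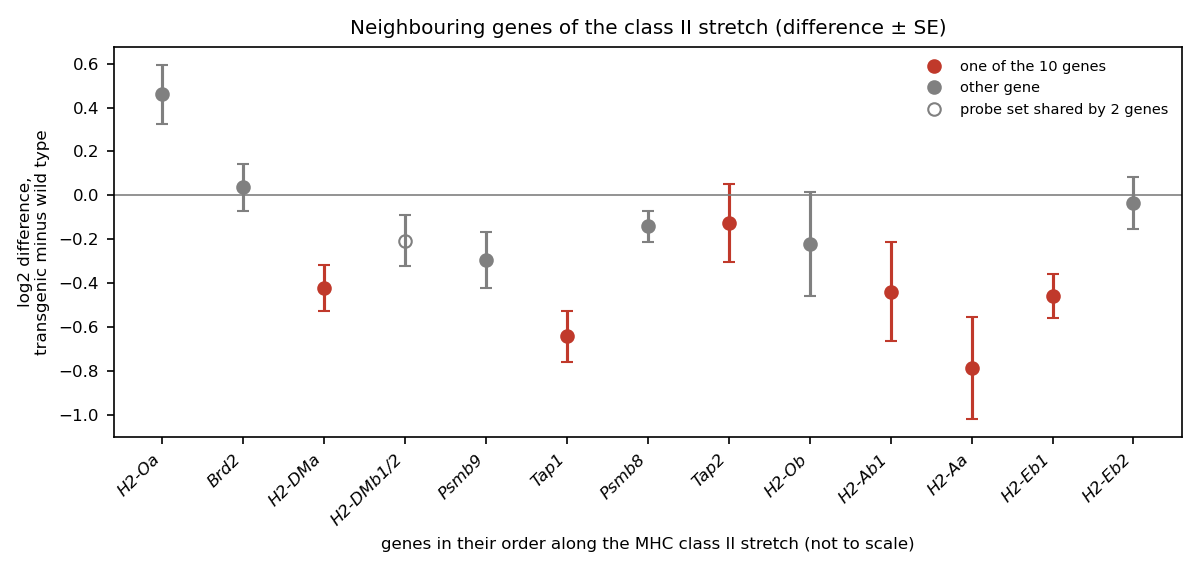
Log2 difference ± SE, transgenic minus wild type (vertical axis), of the genes of the class II stretch in RefSeq order (horizontal axis, not to scale); red points are among the 10 genes, grey points are not, and the open point is the probe set shared by H2-DMb1 and H2-DMb2. H2-Oa stands at 0.46, and H2-DMa, Tap1, H2-Aa and H2-Eb1 stand at -0.42 to -0.79.

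The rest of the class II pathway was not lower as a list. Of 23 further genes 21 had a probe set of their own, with a median difference of -0.03. In this list 1 was called higher and 0 lower (limma), where 0.12% of all probe sets were called higher and 0.0214% lower. With an unadjusted p under 0.05, 2 were higher and 0 lower, where 3.7% of all probe sets were higher and 2.9% lower. The called gene was cathepsin S, Ctss, the protease that trims the invariant chain in endosomes. It read 7.10, 7.38, 7.77, 7.40 and 7.24 on the wild-type and 8.71, 8.49, 8.47, 8.78 and 8.82 on the transgenic arrays and rose 2.42-fold (limma adjusted p = 0.00326). The groups were far apart on every array, and the difference was 1.32 over set A alone and 1.33 over set B alone, although with fewer arrays neither passed (adjusted p = 0.0633 and 0.115). Cathepsin L, Ctsl, which does the same trimming in thymic epithelium, differed by 0.52 (SE 0.24, limma adjusted p = 0.763) and by 0.68 when blocked on array set, where it passed (adjusted p = 0.00514). That was the 1 of 22 alternative settings to call Ctsl, and its highest adjusted p was 0.941. The endosomal protease legumain, Lgmn, differed by 0.44 (SE 0.22). The X box factor subunits Rfx5, Rfxank and Rfxap differed by -0.12, -0.04 and -0.03, and were named after their values were seen.

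Class I genes outside the 10 gave a mixed picture. Of 25 listed, 15 had a probe set of their own, with a median difference of -0.04. In limma 0 were called, where 0.141% of all probe sets were. With an unadjusted p under 0.05 there were 3 lower and 1 higher, where 2.9% of all probe sets were lower and 3.7% higher. The 3 were the non-classical heavy chain genes H2-Q4 (-0.46, SE 0.14) and H2-T24 (-0.64, SE 0.20), and Nlrc5, the transactivator of class I genes. Nlrc5 read 8.83 ± 0.14 in transgenic and 9.10 ± 0.08 in wild type (SD, n = 5 each), without overlap, a difference of -0.27 (SE 0.08, limma adjusted p = 0.426). It has 19 probe sets, of which 17 had negative differences, with a median of -0.29 and a range of -0.61 to 0.08; they read 1 gene on the same arrays and are not independent. The 1 higher was Mr1 (0.56, SE 0.24), which presents vitamin metabolites. The heavy chains H2-K1 and H2-D1 lie only on 2 probe sets that they share, which differed by -0.01 (95% interval -0.28 to 0.25) and -0.10 (95% interval -0.37 to 0.17). The probe set shared by H2-Q6 and H2-Q8 differed by -0.39 (95% interval -0.80 to 0.01). Those shared by H2-T23 and H2-T-ps, by H2-T9, H2-T22 and H2-T10, and by H2-Q1 and H2-Bl differed by -0.27, -0.16 and -0.09. That of H2-T3 and H2-T18 differed by 0.48 (SE 0.61). Of 10 proteasome genes 0 were called and 1, Psmb9, was lower with an unadjusted p under 0.05, where 2.9% of all probe sets were. Psmb8, whose gene stands on the other side of Tap1 from Psmb9, differed by -0.14 (SE 0.07). The activator subunits Psme2 and Psme4 differed by -0.27 (SE 0.20) and 0.23 (SE 0.19).

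**Figure D4:**
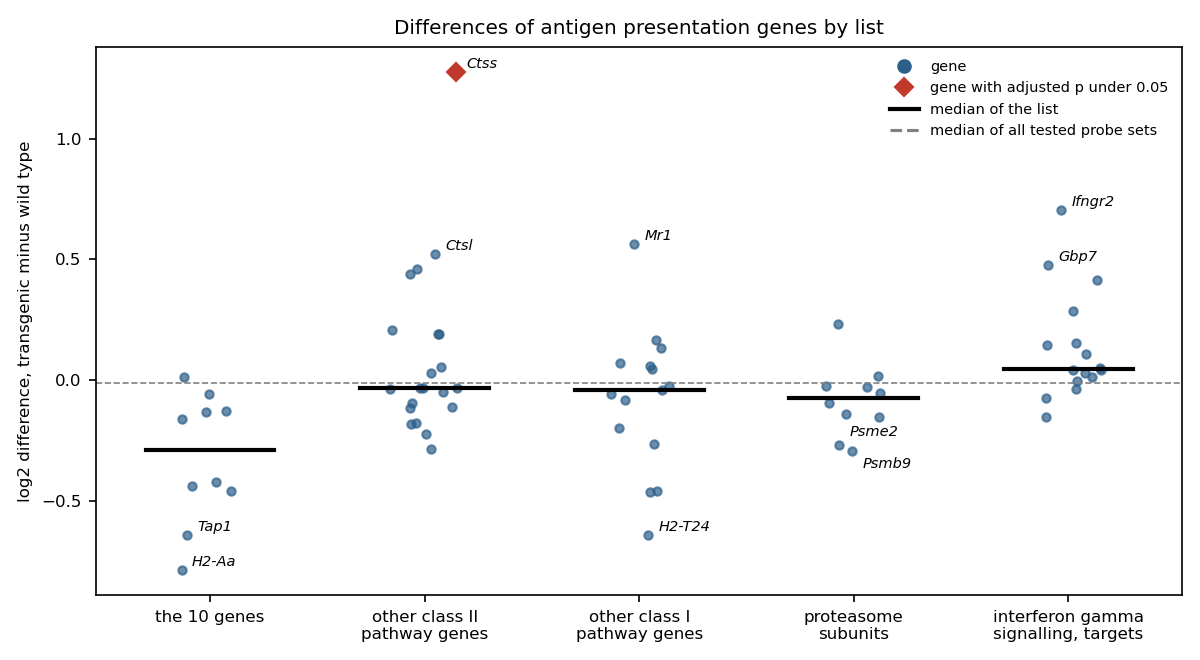
Log2 difference, transgenic minus wild type (vertical axis), of each gene of 5 lists (horizontal axis); blue points did not pass and the red diamond, Ctss, had a limma adjusted p under 0.05. Black bars are list medians and the dashed line is the median of all tested probe sets; the bar of the 10 genes stands at -0.29 and those of the other 4 lists between -0.08 and 0.05.

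Interferon gamma is the classical inducer of Ciita, Tap1 and the immunoproteasome, and its receptor and early targets made up another list. Of 20 listed genes 16 had a probe set of their own, with a median difference of 0.05, 12 of them positive and 4 negative. In limma 0 were called, where 0.141% of all probe sets were. With an unadjusted p under 0.05, 3 were higher and 0 lower, where 3.7% of all probe sets were higher and 2.9% lower. The receptor chain Ifngr2 read 7.35, 7.32, 7.15, 6.80 and 6.88 on the wild-type and 7.92, 7.53, 7.98, 7.76 and 7.85 on the transgenic arrays. Its groups did not overlap, and it differed by 0.70 (SE 0.13, limma adjusted p = 0.0917). Of 22 alternative settings 1 called it, the fit without transgenic array 2 (0.77, adjusted p = 0.0434), and its highest adjusted p was 0.583. The other chain, Ifngr1, differed by 0.29 (SE 0.12). Of the interferon-induced GTPases, Gbp7 differed by 0.48 (SE 0.14, limma adjusted p = 0.375) and Gbp3 by 0.41 (SE 0.23). The others listed, named after their values were seen, did not all go the same way. Irgm1 and Iigp1 differed by 0.01 and -0.07. The probe set shared by Irgm2 and Igtp differed by -0.12, and that shared by Gbp2 and Gbp2b by 0.26. Outside the GTPases, Irf1, Cxcl9, Cxcl10, Socs1 and Cd274 differed by -0.15, -0.0048, -0.04, 0.05 and 0.04, also named after their values were seen.

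Markers of professional antigen-presenting cells were dim. Of 10 dendritic cell markers 8 were below the median brightness of tested probe sets, and their mean level per array was 4.87 to 4.99 in transgenic and 4.88 to 5.15 on the wild-type arrays. Clec9a, a receptor of cross-presenting dendritic cells, read 3.60 to 4.12 in transgenic and 3.68 to 5.14 on the wild-type arrays (-0.54, SE 0.27, limma adjusted p = 0.793), while Ccr7, Xcr1 and Batf3 differed by 0.15, 0.14 and -0.14. Of 9 B cell markers 8 were below that median, with mean levels of 4.30 to 4.46 and 4.31 to 4.54; Cr2, Blk, Ms4a1 and Cd22 differed by 0.15, -0.16, -0.10 and -0.09. Of 11 macrophage and monocyte markers 9 were below it, with mean levels of 4.98 to 5.58 and 4.85 to 5.26, the highest on transgenic array 5. Cd68, Vcam1, Adgre1 and Csf1r differed by 0.56, 0.33, -0.11 and 0.07. Without transgenic array 5, Vcam1 differed by 0.022 and Cd68 by 0.36, and Cd68 was at 0.13 over set A and 1.08 over set B. None of these 30 markers had an unadjusted p under 0.05, where 6.59% of all probe sets did.

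The endothelial list and, through Flt3 and Cd48, the stem cell list stood apart in mean level. The mean level of the 10 endothelial markers was 6.56 to 6.95 in transgenic and 6.15 to 6.46 on the wild-type arrays. That of 12 stem cell markers was 8.27 to 8.53 and 7.90 to 8.26. For neither list did the groups overlap, and how often this happens for lists of such sizes was not tested. Without Flt3 and Cd48, which mark progenitors, the other 10 stem cell markers averaged 8.59 to 8.68 and 8.36 to 8.72, and the groups overlapped. Of the endothelial markers 4 were higher with an unadjusted p under 0.05, namely Pecam1 (0.68), Cdh5 (1.48), Cldn5 (0.44) and Esam (0.52), and 0 were called (limma). Pecam1 had a limma adjusted p of 0.0591. It was called in 3 of 22 alternative settings, 0.0469 when blocked on array set and 0.0391 without transgenic array 5 among them, and its highest adjusted p was 0.502. Of the stem cell markers 5 were higher and 1 lower with an unadjusted p under 0.05, where 3.7% of all probe sets were higher and 2.9% lower. Of these markers 0 were called, where 0.141% of all probe sets were. Flt3 differed by 1.53, Cd48 by 1.34 (although the cells were sorted as CD48-negative), Procr by 1.08 and Kit by -0.47. Without transgenic array 2 Flt3 passed (1.79, limma adjusted p = 0.0274), the 1 of 22 alternative settings to call it, and its highest adjusted p was 0.574. Of 9 T and NK cell markers 6 were below the median brightness and mean levels were 4.91 to 5.30 and 4.96 to 5.18; Thy1, Klrb1c, Nkg7 and Ncr1 differed by 1.20, 0.79, -1.17 and -0.19. Thy1 also passed without transgenic array 2 (1.47, limma adjusted p = 0.0189), the 1 of 22 alternative settings to call it, and its highest adjusted p was 0.702. Stromal markers (10 genes, 8 below the median brightness) averaged 4.51 to 4.64 and 4.41 to 4.67, with Pdgfrb, Col1a2, Dcn and Cxcl12 at 0.22, -0.15, -0.10 and 0.04. Some of these markers had unlike sizes in the array sets. Set A and set B gave 2.24 and 0.55 for Cdh5, 1.79 and 0.55 for Procr, and 0.95 and 2.21 for Flt3. They gave 0.96 and 0.31 for Esam, 0.32 and 1.51 for Klrb1c and -1.87 and -0.42 for Nkg7. The interaction of group and set had an unadjusted p under 0.05 in limma for each of these genes, where 3.96% of all probe sets had one, and none passed after adjustment. Some listed markers not named here had such a p too. The part of these markers in the antigen presentation differences was not tested.

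Within the groups the 10 genes correlated only in part. Across the 10 arrays, as deviations from the group means, the 15 pairs of class II genes had a median Pearson correlation of 0.24, from -0.28 to 0.70, the highest being H2-Ab1 with H2-DMa. The 6 class I pairs had a median of -0.14, from -0.64 (Tap2 with Tapbp) to 0.35, and the 24 pairs between the classes one of 0.18. With the difference between array sets also taken out, the medians were 0.25, -0.35 and 0.10. Tap1 with Tap2 then went from 0.30 to -0.62, B2m with Tap2 from 0.35 to 0.63 and H2-Aa with H2-Ab1 from 0.18 to 0.59. Among 16926 named genes outside the lists, those most like Cd74 by this measure were Mrps26 (0.97), Got1 (0.97), Tmem159 (0.96), Adck5 (0.95) and Acot11 (0.95). Those most like Tap1 were Tmem40 (0.95), Slc30a9 (0.93), Aamp (0.91), Pcnp (0.91) and Ip6k2 (0.91). After the same step these correlations were 0.92 to 0.97 for Cd74 and 0.82 to 0.95 for Tap1. They share arrays and amplification, are the highest of many, and are descriptions without a test.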

How the data were processed

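Amplified, biotin-labelled cDNA was hybridised to Affymetrix Mouse Gene ST 1.0 arrays. The authors deposited 1 table of log2 values, made with RMA per the submitters' processing notes, which also name affy and limma; their versions and a genome build were not given in the sources used here. This method compresses differences near the floor. Over all probe sets the array medians ran from 5.45 to 5.56, lower in set B than in set A. No filter or further scaling was applied.

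Of 35556 probe sets the platform annotation gives 21789 a single gene symbol, 1621 more than 1, and leaves 12146 unnamed. The 23410 named ones were fitted with limma 3.58.1 in R 4.3.3 (lmFit, eBayes, two-sided, Benjamini-Hochberg), transgenic minus wild type. On 5 simulated tables with independent noise and 200 changed probe sets, the fit called 41.5% of changes of 0.5 log2 units, 79.7% of 1 and 98.8% of 2. Of its calls 3.94% were false. Changes near 0.5 log2 units were thus often missed. Precision is limited by the number of arrays, 5 in each group; 0 pairs of arrays were identical. Groups come from the sample titles.

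Beside the 10 genes, 11 lists were used (164 listed genes in all: 143 with a probe set of their own, 14 on shared ones, 7 with none listed). Named are all 10 genes, up to 4 of each list by smallest p and any called gene, and the 5 genes most like Cd74 and Tap1. Some further genes were named after their values were seen. The members and lists were chosen with earlier results of these data known. Alternatives were the replicate number or array set as a block, each array set alone, quantile normalization, median centring, brighter or all probe sets, trend and robust eBayes, array weights, a floor at the 20th percentile, a threshold of 0.01, averaged probe sets, and each array left out. Those for the correlations, the partner differences and the stem cell list without Flt3 and Cd48 were chosen after seeing the data.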

Additional observations from a re-analysis of the deposited data

Results flagged for a closer look

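In 5 of 108 groups of 5 arrays examined over 54 named genes, the highest or lowest array stood farther from its nearest neighbour than Dixon's 95% critical value of 0.71 of the group's range; chance flags about 1 in 20 groups. Cd74 read 6.58 on wild-type array 3 against 5.96 to 6.11 on the other wild-type arrays. Batf3 read 5.44 on transgenic array 3, the lowest of its group, and Vcam1 read 6.57 on transgenic array 5, with the next highest at 5.31. Cr2 read 4.61 on transgenic array 4, with the next at 4.41. Flt3 read 6.14 on wild-type array 4 against 7.10 to 7.48 on the other wild-type arrays.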

How the results depend on the processing

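The number called among the 10 genes was 0 in the main fit and stayed at 0 in every alternative run but the array set as a block, which gave 1 (Tap1). Of 219 values of the 10 genes under alternatives, 211 kept their direction and their side of the threshold, 1 was called newly and 7 changed sign. Tapbp, near 0, gave -0.0036 with the array set as a block, -0.016 within set A and -0.026 to 0.064 with 1 array left out, and Tap2 gave 0.0066 within set A. Within set A, Lgmn gave -0.0068, Batf3 0.013 and Vcam1 -0.048. Of 10 genes, 4 to 5 were lower with an unadjusted p under 0.05 when 1 array was left out, H2-Ab1 being the fifth without transgenic array 5 or wild-type array 2.

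Over all probe sets the 33 calls became 91 with the array set as a block (these 33 among them), 4 within set A, 6 within set B, 15 with unnamed probe sets included, 8 with a floor at the 20th percentile and 7 at a threshold of 0.01. Leaving out 1 array gave 15 to 71 calls: 71 without transgenic array 2, 19 and 15 without transgenic arrays 3 and 4, and 20, 18, 16, 17 and 17 without wild-type arrays 1 to 5. The group effect differed between array sets at 0 probe sets. Without transgenic array 4, set B holds only transgenic array 5 of that group, so that fit cannot speak of a difference between sets. With the replicate number as a block, 33 probe sets and 0 of the 10 genes were called. Whether the numbers pair the arrays is not known: the deviations of same-numbered arrays correlated by 0.24, 0.35, -0.14, 0.11 and 0.33 for numbers 1 to 5, so not all were positive, and 1 of 10 arrays correlated best with its own number. Dim probe sets such as Ciita limit what can be seen.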
